A study of Drosophila melanogaster with 24 samples.

Results

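The Cpr genes of Drosophila melanogaster encode cuticular proteins, and their binding by insulator proteins and by CLAMP was described from ChIP-seq peak lists of Kc167 cells, a line derived from embryos. Members were the protein-coding genes of the RefSeq table, on the assembled chromosome arms, whose symbol is Cpr followed by a digit. They numbered 70 of 13922 protein-coding genes, with 35 on 3L, 21 on 2R, 5 on 2L, 5 on 3R and 4 on X. A gene was called bound in a list where a peak overlapped it by at least 1 base or where a peak's summit lay within 500 bases of either gene end.

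Proteins of the Cpr family carry the Rebers and Riddiford sequence, a conserved stretch that binds chitin, and the epidermis secretes them into the cuticle. Many of the genes stand in tandem clusters, and different members are used at different moults and in different parts of the body. Su(Hw) is the DNA-binding zinc finger protein of the gypsy insulator, and Mod(mdg4) and CP190 are its partners with BTB domains. CP190 also lies at many promoters with other DNA-binding proteins. CLAMP is a zinc finger protein that binds GA repeats and is known from dosage compensation of the X chromosome.

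The study set Kc167 cells given double-stranded RNA against Clamp beside mock-treated cells, and asked where CLAMP and the gypsy insulator proteins lie. The dsRNA cells received 5 µg of dsRNA and were kept for 6 days, and they gave 2 libraries with the second CLAMP antibody (labelled clamp-abcam) and 2 input libraries. From mock cells there were 10 input libraries and 2 libraries for each of 5 antibodies, against CP190, Mod(mdg4), Su(Hw) and CLAMP, the last with the first antibody (labelled clamp) and with the second. The files hold 1 list per antibody and treatment, which the labels tie to both libraries and 2 inputs, so no value below has a replicate spread or a test. All cells are of 1 line, in which no transcription was measured here, and the dsRNA was compared with mock cells for the second CLAMP antibody only.

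On the arms, the CP190 list held 9435 peaks, the Su(Hw) list 3687 and the Mod(mdg4) list 1732. There were 5370 for the first CLAMP antibody, 1653 for the second after Clamp dsRNA and 3861 for the second in mock cells. Read numbers behind the lists are unknown, so a gene without a peak is a gene at which none was listed. The fold enrichment given for a peak is the authors' value at its summit, and it is used here to place a peak within its own list, not to set amounts of different proteins against each other. At Clamp itself, the gene targeted by the dsRNA, the second antibody had 0 peaks after dsRNA and 1 of 17.7-fold in mock cells. Neither list measures how much CLAMP protein remained.

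Most Cpr genes had no peak of any protein, and CLAMP was listed at 1 of them. No list had a peak at 55 of the 70 genes, 7 had a peak of CP190 alone, 7 had peaks of Su(Hw), Mod(mdg4) and CP190, and Cpr97Ea had these together with both CLAMP antibodies in mock cells. Any list reached 15 Cpr genes (21.4%), against 63.2% of all protein-coding genes.

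CP190 was listed at 15 Cpr genes (21.4%), against 60.1% of all protein-coding genes. CP190 without Su(Hw) was found at 7 Cpr genes (10%), against 49.6% of all protein-coding genes. Su(Hw) reached 8 Cpr genes (11.4%), against 11.1% of all protein-coding genes, a share near the background. With the better-ranked 50% of Su(Hw) peaks the same number of Cpr genes stood against 7.02% of all, and with a window of 1000 bases 14 (20%) stood against 13.3%. A window of 200 bases gave 7 (10%) against 9.90%, and overlap with the gene alone 7 (10%) against 9.77%, both near the background. At 500 bases, Mod(mdg4) reached the same 8 genes as Su(Hw) (11.4%), against 6.18% of all protein-coding genes. Those 8 genes held all 3 proteins, a combination found at 5.95% of all protein-coding genes.

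CLAMP was at a smaller share of Cpr genes than CP190, and also below its background. The first antibody reached 1 Cpr gene (1.43%), against 19.9% of all protein-coding genes. The second antibody reached 0 Cpr genes after Clamp dsRNA, against 1.45% of all protein-coding genes. In mock cells it reached 1 Cpr gene (1.43%), against 18.9% of all protein-coding genes.

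**Figure D1:**
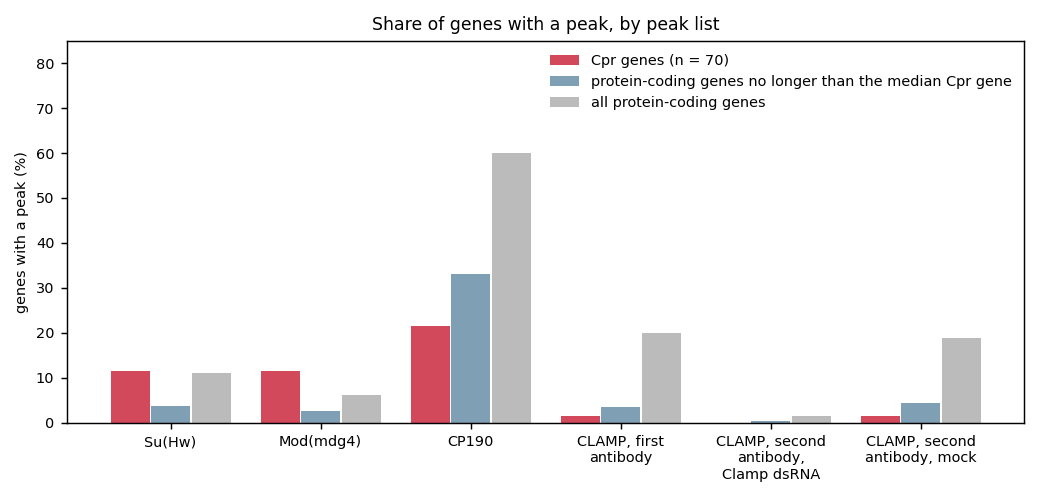
Percent of genes with a peak (vertical axis) in each of the 6 lists, for the 70 Cpr genes, for protein-coding genes no longer than the median Cpr gene and for all protein-coding genes. The Cpr bars of CP190 and of CLAMP in mock cells stand below both other bars, and those of Su(Hw) and Mod(mdg4) stand above the bar of the short genes. The Cpr bars also hold genes longer than the short ones. Of the 35 Cpr genes no longer than the median, 2.86% had Su(Hw) and 2.86% Mod(mdg4), against 3.68% and 2.59% of the short genes.

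Cpr genes are short, and a longer gene offers more room for a peak. Their lengths ran from 457 to 18590 bases with a median of 1093.5, against a median of 2163 over all protein-coding genes. Of protein-coding genes no longer than that median, 3.68% had Su(Hw), 2.59% Mod(mdg4), 33.2% CP190, 3.56% the first CLAMP antibody and 4.27% the second in mock cells. The share of Cpr genes with CP190 therefore lay below that of short genes as well. The share with either CLAMP antibody in mock cells, 1.43%, was also lower, but that difference is small and rests on 1 gene.

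The bound members were mostly the longer ones. Among the 35 Cpr genes longer than the median, 7 (20%) had Su(Hw), the same number had Mod(mdg4) and 12 (34.3%) had CP190. Among protein-coding genes of that length range, from the median to the longest Cpr gene, 7.76% had Su(Hw), 4.38% Mod(mdg4) and 65.6% CP190. Among the 35 shorter Cpr genes, 1 (2.86%) had Su(Hw), 1 (2.86%) had Mod(mdg4) and 3 (8.57%) had CP190. Among protein-coding genes no longer than the median the shares were 3.68%, 2.59% and 33.2%, so only CP190 stood apart there. Either CLAMP antibody in mock cells was at 1 of the 35 longer Cpr genes (2.86%) and at 0 of the shorter ones. In the longer range 20.2% of protein-coding genes had the first CLAMP antibody and 19.0% the second in mock cells. Length and binding moved together within the family, and the part of length in the counts was not tested further.

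The members with a peak were spread over 4 of the 5 arms that hold Cpr genes. In clusters, defined as at least 2 Cpr genes of 1 arm with gaps of at most 20 kb, 12 of 49 genes had a peak, and all 8 genes with Su(Hw) and Mod(mdg4) were among them. Outside clusters 3 of 21 genes had a peak, each of CP190 alone. By arm, 8 of 21 genes had a peak on 2R, 5 of 35 on 3L, 1 of 5 on 3R, 1 of 4 on X and 0 of 5 on 2L. Over all protein-coding genes the share with a peak of any list was 63.0% on 2R, 62.5% on 3L, 64.0% on 3R, 68.5% on X and 59.2% on 2L. The counts by place are small and were not tested.

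Cpr97Ea, on 3R at 27083130 to 27087778 (dm6), was the member with the most lists. Its summits lay just outside its lower end, between the gene and CG14257, and the Su(Hw), Mod(mdg4) and CP190 peaks reached into the gene. All of these summits were nearer to CG14257, at 10 to 102 bases, than to Cpr97Ea, at 210 to 302 bases. CP190 reached 18.4-fold in a peak from 27081457 to 27083765, Su(Hw) 13.1-fold and Mod(mdg4) 11.2-fold, each the largest or among the 5 largest at any Cpr gene. CLAMP was listed there at 2.61-fold with the first antibody; with the second it had no peak after Clamp dsRNA and 2.22-fold in mock cells. These CLAMP values were low within their lists, as 39.3% of the first antibody's peaks and 14.9% of the second antibody's mock peaks were lower. The CP190 value was high within its list, with 97.9% of peaks lower, and the Mod(mdg4) value stood above 98.6% of its list.

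The cluster Cpr47Ea to Cpr47Eg on 2R held strong sites inside genes. Cpr47Ee (2R, 11265126 to 11266856) had Su(Hw) at 16.2-fold, Mod(mdg4) at 7.76-fold and CP190 at 16.2-fold. All 3 summits lay inside the gene, within 10 bases of each other. The CP190 peak was 3400 bases wide and also reached the start of Cpr47Ef, which was counted as bound for that reason, while the Su(Hw) summit was 833 bases away from Cpr47Ef. Cpr47Ea (2R, 11251751 to 11253398) had Su(Hw) at 12.7-fold, Mod(mdg4) at 4.46-fold and CP190 at 11.8-fold, again inside the gene.

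In the cluster Cpr49Aa to Cpr49Ah, Cpr49Ae (2R, 12402216 to 12405108) held Su(Hw) at 8.31-fold, Mod(mdg4) at 6.84-fold and CP190 at 15.9-fold in its interior. Cpr49Ab (2R, 12378440 to 12379396) had a weaker site outside its lower end, with Su(Hw) at 7.50-fold, Mod(mdg4) at 4.54-fold and CP190 at 9.58-fold. The Su(Hw) peak at Cpr49Ab was the smallest of the 9 Su(Hw) peaks at Cpr genes. Cpr49Ad had CP190 alone, at 4.99-fold, 299 bases outside the gene.

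Cpr50Ca (2R, 13769915 to 13787802), one of the longest members, held a pair of sites inside it. The stronger had Su(Hw) at 18.1-fold, the largest Su(Hw) value at any Cpr gene and above 95.6% of that list, with Mod(mdg4) at 5.07-fold and CP190 at 14.8-fold. The weaker had Su(Hw) at 9.26-fold and CP190 at 7.25-fold, with no Mod(mdg4) peak. It was the only Su(Hw) peak at a Cpr gene without Mod(mdg4). Its neighbour Cpr50Cb was overlapped at its higher end by a CP190 peak of 5.25-fold. The summit of that peak lay 544 bases beyond Cpr50Cb and 19 bases from stj.

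On 3L, Cpr62Ba (1824129 to 1831783) had Su(Hw) at 11.1-fold, Mod(mdg4) at 4.74-fold and CP190 at 17.0-fold, with summits 129 to 135 bases beyond its higher end. Cpr78Cb (21294492 to 21296698) had Su(Hw) at 8.05-fold, Mod(mdg4) at 6.19-fold and CP190 at 13.0-fold beyond its higher end. That site lay between Cpr78Cb and Edg78E, another cuticle protein gene that responds to ecdysone, and its Su(Hw) summit was 55 bases from Cpr78Cb and 10 bases from Edg78E.

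The remaining members with a peak had CP190 alone, and their values fell into a high and a low range. CP190 reached 17.1-fold at Cpr67Fa2 and 16.8-fold inside Cpr73D (3L, 16939100 to 16957689). It was 5.67-fold at Cpr66Cb and 4.59-fold at Cpr11A, the only bound member on X. The Cpr67Fa2 peak overlapped Su(Hw) and Mod(mdg4) peaks whose summits, 687 and 673 bases from the gene, lay outside the window, whereas the Cpr73D peak overlapped no other list.

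**Figure D2:**
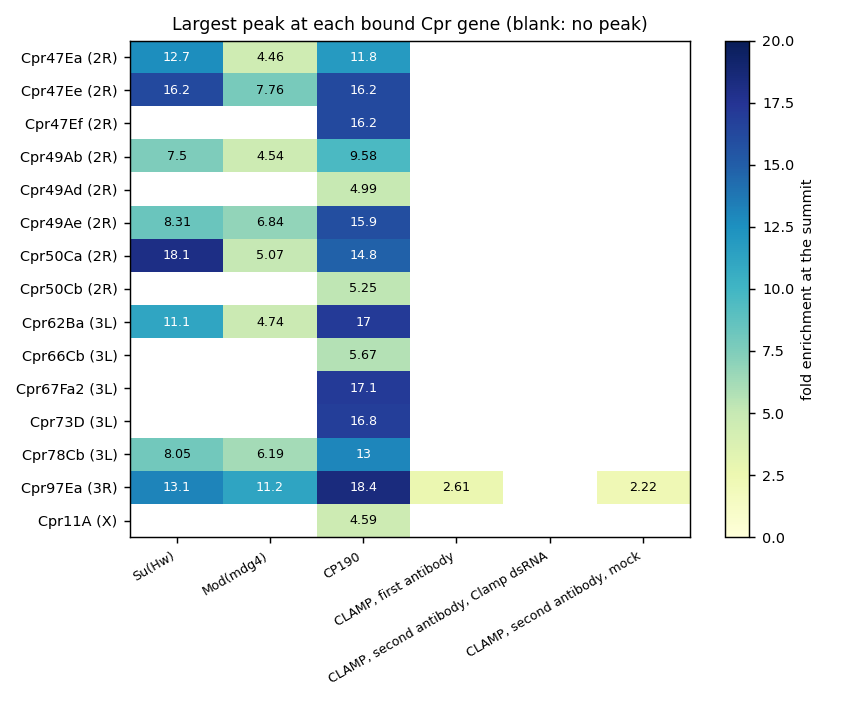
Fold enrichment of the largest peak, as color and printed value, at the 15 Cpr genes with a peak (vertical, with chromosome arm) in each of the 6 lists (horizontal). Blank cells have no peak: CP190 fills all 15 genes, Su(Hw) and Mod(mdg4) the same 8, and CLAMP in mock cells Cpr97Ea alone.

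The insulator protein peaks at Cpr genes were few, and their median stood high within each list. The 9 distinct Su(Hw) peaks ran from 7.50-fold to 18.1-fold with a median of 11.1, against a median of 7.14 over all Su(Hw) peaks on the arms. The 8 Mod(mdg4) peaks ran from 4.46-fold to 11.2-fold with a median of 5.63, against 3.54 over all. The 15 CP190 peaks ran from 4.59-fold to 18.4-fold with a median of 13.0, against 5.59 over all. For CP190, the median peak at a Cpr gene stood above 86.9% of its list.

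The 3 insulator proteins lay together at Cpr genes. Of the 9 Su(Hw) peaks, 8 (88.9%) overlapped a Mod(mdg4) peak, against 35.4% of all Su(Hw) peaks, and all 9 overlapped a CP190 peak, against 76.0% of all. All 8 Mod(mdg4) peaks overlapped both Su(Hw) and CP190, against 75.4% and 73.4% of all Mod(mdg4) peaks. Of the 15 CP190 peaks, 10 (66.7%) overlapped Su(Hw), against 28.2% of all CP190 peaks, and 9 (60%) overlapped Mod(mdg4), against 12.8% of all. Summits of Su(Hw) and CP190 were a median of 24 bases apart, with a range of 1 to 135 over 9 sites. Summits of Su(Hw) and Mod(mdg4) were a median of 20 bases apart, with a range of 1 to 106 over 8 sites.

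Sharing with CLAMP went in the other direction for CP190. Of the 15 CP190 peaks at Cpr genes, 2 (13.3%) overlapped a peak of the first CLAMP antibody, against 26.8% of all CP190 peaks. The same 2 sites, at Cpr97Ea and Cpr50Cb, overlapped the second antibody in mock cells, against 24.3% of all CP190 peaks. The mock CLAMP peak at Cpr97Ea had no overlapping peak after Clamp dsRNA, which was also so for 97.6% of the 3861 mock peaks of that antibody. The loss at Cpr97Ea is thus that of nearly the whole list.

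The 500-base window left a number of peaks just outside. Among combinations of gene and list not counted as bound, 23 had their nearest summit 501 to 1000 bases from an end, at 12 genes. The strongest was a CP190 peak of 21.5-fold, 823 bases from Cpr76Ba and above 99.6% of the CP190 list. The nearest was CP190 at 4.99-fold, 540 bases from Cpr49Ac, and it is the peak counted for Cpr49Ad. CLAMP lay 739 bases from Cpr50Cb at 2.72-fold with the first antibody and 628 bases away at 2.70-fold with the second in mock cells. Just inside the window, the farthest summit outside a gene that counted without overlap was CP190 at Cpr66Cb, 396 bases away.

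Measured as distance, Cpr genes lay closer to Su(Hw) and Mod(mdg4) than genes at large did, and farther from CP190 and CLAMP. The median distance from a Cpr gene to the nearest Su(Hw) summit was 5396.5 bases, against 14178 over all protein-coding genes. For Mod(mdg4) it was 8356.5 bases, against 36798. For CP190 it was 2595.5 bases, against 237 over all and 2377.5 over genes no longer than the median Cpr gene. The distance to CP190 was thus close to that of other short genes.

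For the first CLAMP antibody the median distance was 20921.5 bases, against 8957 over all protein-coding genes and 15375 over the short ones. For the second it was 415493 bases after Clamp dsRNA, against 301014, and 24329.5 bases in mock cells, against 10381.5. Genes with no summit within 10 kb numbered 54 (77.1%) of the Cpr genes for the first CLAMP antibody, against 47.3% of all protein-coding genes. For the second they numbered 67 (95.7%) after dsRNA, against 96.6%, and 52 (74.3%) in mock cells, against 51%. For Su(Hw) they numbered 23 (32.9%), against 59.7%, for Mod(mdg4) 32 (45.7%), against 77.9%, and for CP190 6 (8.57%), against 10.2%. Of genes no longer than the median Cpr gene, the share beyond 10 kb was 21.3% for CP190, 60.5% for Su(Hw), 79.0% for Mod(mdg4), 63.3% for the first CLAMP antibody, and 97.4% for the second after dsRNA and 65.8% in mock cells. Neighbouring Cpr genes share the same nearest peak, so these 70 distances are not independent.

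**Figure D3:**
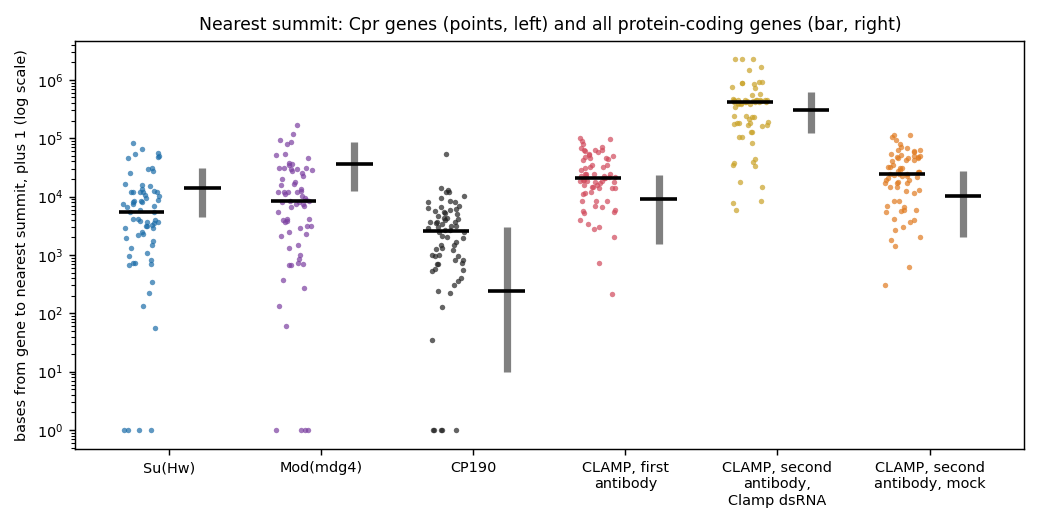
Bases from each of the 70 Cpr genes to the nearest summit (points, with a black line at the median) beside the median and middle 50% of all protein-coding genes (gray bar with black line), in each list, on a log axis with 1 added. Cpr medians lie below those of all genes for Su(Hw) and Mod(mdg4) and above them for the other lists.

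The Cpr genes formed 12 clusters, 8 on 3L, 1 on 3R and 3 on 2R, which held 49 members. On 3L and 3R the first and last genes were Cpr62Ba and Cpr62Bc, Cpr64Aa and Cpr64Ad, Cpr65Au and Cpr65Az, Cpr65Ea and Cpr65Ec, Cpr67Fa1 and Cpr67Fb, Cpr72Ea and Cpr72Ec, Cpr76Ba and Cpr76Bd, Cpr78Ca and Cpr78Cc, and Cpr97Ea and Cpr97Eb. No CLAMP summit of any list lay inside any of the 12 clusters, over 212.8 kb in all. In the 20 kb on either side, the first antibody had 21 summits, and the second had 1 after Clamp dsRNA and 13 in mock cells.

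Per 100 kb, Su(Hw) summits numbered 6.11 inside the clusters, 3.13 in the flanks and 2.73 over the 3 arms. Mod(mdg4) summits numbered 5.17 inside, 1.88 in the flanks and 1.40 over the arms. CP190 summits numbered 6.58 inside, 10.0 in the flanks and 6.97 over the arms. The first CLAMP antibody had 0 inside, 4.38 in the flanks and 4.01 over the arms, and the second in mock cells 0, 2.71 and 2.61. Su(Hw) and Mod(mdg4) were thus denser inside clusters than around them, and CP190 was denser around them. The arms differed in degree: inside the clusters of 3L and 3R there were 4.46 Su(Hw) summits per 100 kb, and inside those of 2R 7.96.

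Sites of Su(Hw), Mod(mdg4) and CP190 together lay inside or within 5 kb of 10 of the 12 clusters and of 7 of the 9 clusters on 3L and 3R. No such share was taken over other spans of like length, so these counts have no background. A longer span also has more room for a site. On 3L and 3R, 4 such sites were inside and 4 outside. The clusters at Cpr72E and Cpr76B had none.

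The edges of the clusters on 3L and 3R were searched from 5 kb outside to 1 kb inside the outer gene ends. Of the 18 ends, 6 (33.3%) had a Su(Hw) summit, against 13% of the ends of all protein-coding genes on these arms. Mod(mdg4) was at 4 ends (22.2%), against 7.49%, and CP190 at 10 ends (55.6%), against 62.5%. The first CLAMP antibody was at 3 ends (16.7%), against 19.4%. The second was at 0 ends after Clamp dsRNA, against 0.635%, and at 3 ends (16.7%) in mock cells, against 17.6%. The edges thus carried CP190 and CLAMP at shares near the background, and Su(Hw) and Mod(mdg4) at shares above it, over few ends.

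Of the edge sites with all 3 insulator proteins, that of Cpr97Ea, described above, was the closest to a Cpr gene. At the cluster Cpr65Au to Cpr65Az the site lay 1490 bases below Cpr65Au, with Su(Hw) at 11.9-fold, Mod(mdg4) at 4.67-fold and CP190 at 11.7-fold. Its nearest gene was Lcp65Ag3, a larval cuticle protein gene, with l(3)mbn on the other side, so it stood outside the joint array of Cpr65A and Lcp65A genes. At the other end of this cluster, Su(Hw) alone reached 4.99-fold within Prdm13, 2939 bases beyond Cpr65Az. The interior held 11 other protein-coding genes and 1 CP190 peak, of 3.81-fold.

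At Cpr64Aa to Cpr64Ad the edge site was 3106 bases beyond Cpr64Ad, inside CG43367, with Su(Hw) at 11.6-fold, Mod(mdg4) at 6.97-fold and CP190 at 10.9-fold. At Cpr65Ea to Cpr65Ec it was 3663 bases below Cpr65Ea, with Su(Hw) at 10.6-fold, Mod(mdg4) at 6.60-fold and CP190 at 12.3-fold. Inside both clusters no list had a summit. At the other end of Cpr65Ea to Cpr65Ec, CP190 alone was at 4.27-fold, 969 bases beyond Cpr65Ec and 8 bases from form3.

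Unlike the clusters just described, Cpr67Fa1 to Cpr67Fb had its insulator site inside, as did Cpr62Ba to Cpr62Bc and Cpr78Ca to Cpr78Cc. It also had CLAMP on both sides. The interior site, between Cpr67Fa2 and Cpr67Fb, had Su(Hw) at 8.18-fold, Mod(mdg4) at 4.91-fold and CP190 at 17.1-fold. Below the cluster, in OXA1L, CLAMP was at 7.57-fold with the first antibody and at 7.76-fold with the second in mock cells, beside CP190 at 9.82-fold. Above it, in Aps, the CLAMP peaks were 1.84-fold and 1.88-fold with the first antibody and 2.70-fold with the second. These were low within their lists, with 3.41% and 4.75% of the first antibody's peaks and 31.7% of the second antibody's mock peaks lower. CP190 at 19.7-fold lay 225 bases from Aps and 4655 bases beyond Cpr67Fb.

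The other clusters of 3L were less alike. Cpr62Ba to Cpr62Bc had no edge peak, but a pair of interior sites, that beyond Cpr62Ba and a second near Cpr62Bc with Su(Hw) at 5.06-fold, Mod(mdg4) at 6.76-fold and CP190 at 9.38-fold. Cpr72Ea to Cpr72Ec had a single edge peak, CP190 at 2.47-fold, 500 bases from ringer. At Cpr76Ba to Cpr76Bd the strong CP190 peak of 21.5-fold stood alone, and Su(Hw) at 9.86-fold lay farther out, 3323 bases below Cpr76Ba, next to CP190 at 2.70-fold.

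At Cpr78Ca to Cpr78Cc the insulator site was the one between Cpr78Cb and Edg78E, and the edge held CP190 alone at 5.83-fold, 10 bases from CG11309. The only dsRNA peak within 20 kb of any cluster lay 5786 bases below Cpr78Ca, at 2.14-fold. A mock peak of the same antibody, of 15.5-fold, lay 5849 bases below the gene.

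**Figure D4:**
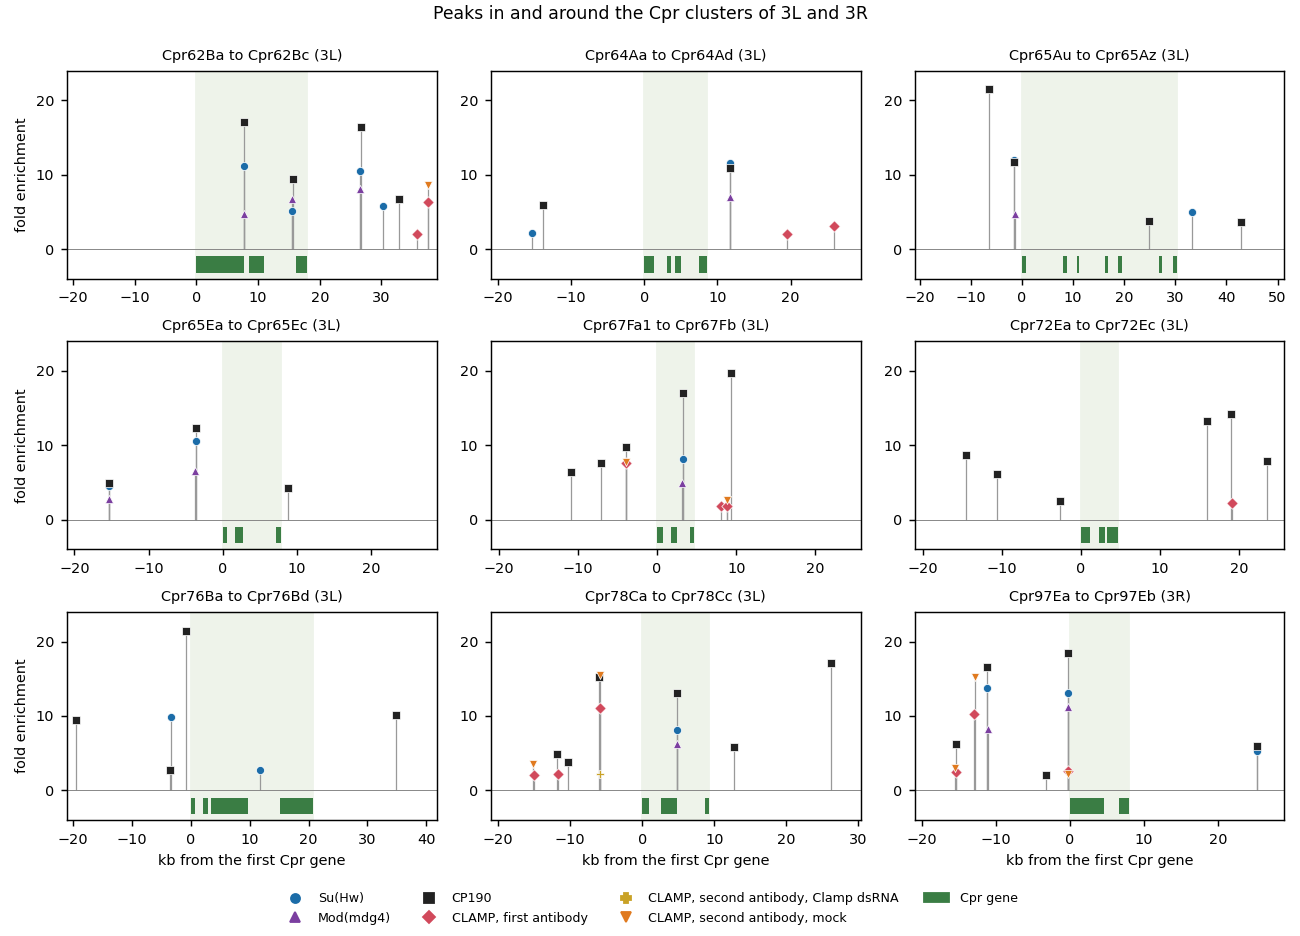
Fold enrichment of each peak (vertical axis) against the distance of its summit from the first Cpr gene in kb (horizontal axis) for the 9 clusters of 3L and 3R, with 20 kb on either side. Shading marks the cluster and green boxes the Cpr genes; CLAMP markers stand only outside the shading.

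On 2R, where clusters were longer, the insulator sites were mostly inside. Cpr47Ea to Cpr47Eg and Cpr49Aa to Cpr49Ah had 3 Su(Hw) summits each, and Cpr50Ca to Cpr50Cb had 2. In the first cluster, Su(Hw) at 14.0-fold and Mod(mdg4) at 10.7-fold lay 1025 and 1001 bases from Cpr47Ee, under the same wide CP190 peak. In Cpr49Aa to Cpr49Ah, Su(Hw) at 9.47-fold, Mod(mdg4) at 6.12-fold and CP190 at 17.0-fold lay beside CG30050. Their nearest Cpr gene was Cpr49Ag, at 1324, 1305 and 1282 bases. CLAMP came closest on this arm beyond Cpr50Cb, in the peaks given above.

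**Figure D5:**
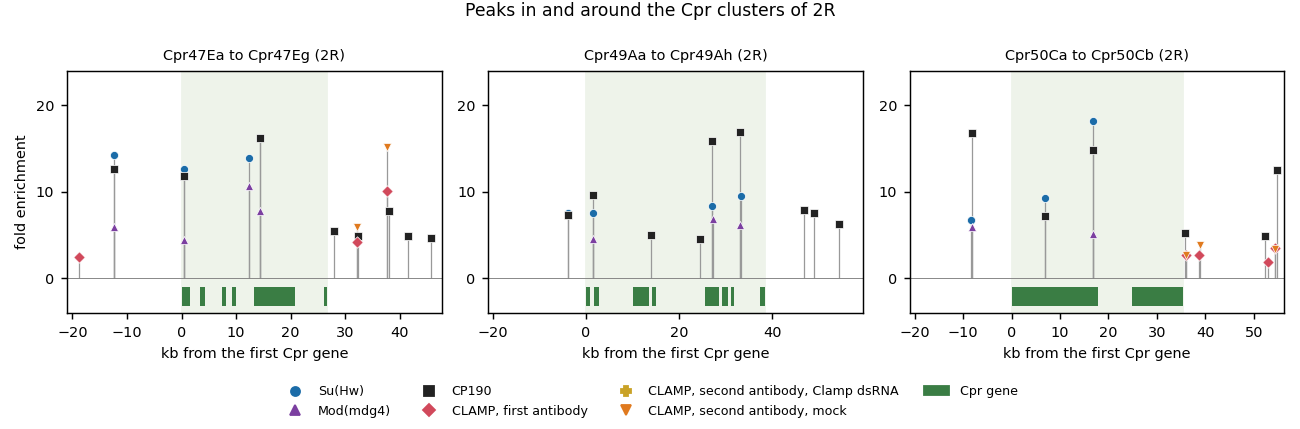
Fold enrichment of each peak (vertical axis) against the distance of its summit from the first Cpr gene in kb (horizontal axis) for the 3 clusters of 2R, drawn as for 3L and 3R. Su(Hw) and Mod(mdg4) peaks fall inside the shaded clusters 8 and 7 times, and CLAMP peaks 0 times.

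The other cuticular protein genes, 72 in all, were bound much as the Cpr genes were. Su(Hw) was at 8 of them (11.1%), Mod(mdg4) at 5 (6.94%), CP190 at 13 (18.1%) and the first CLAMP antibody at 1 (1.39%). The second was at 2 (2.78%) after Clamp dsRNA and 1 (1.39%) in mock cells. None of the 7 Ccp84A genes had a peak of any list, and 3 of 15 Lcp genes and 2 of 25 Twdl genes did, against 63.2% of all protein-coding genes and 34.4% of those no longer than the median Cpr gene. CLAMP was listed at Mur2B, a mucin-related gene of 145235 bases that overlaps br and shares its Su(Hw) and CLAMP peaks, at 20.9-fold with the second antibody in mock cells. CP190 reached 18.3-fold at Mur11Da, 15.7-fold at obst-F and 14.6-fold at Edg84A.

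For CP190 and CLAMP, genes of chitin and cuticle assembly stood between the cuticular proteins and genes at large, though they are longer, with a median of 4758 bases. Of 32, CP190 was at 13 (40.6%), Su(Hw) at 6, Mod(mdg4) at 3, the first CLAMP antibody at 5 (15.6%) and the second at 0 after Clamp dsRNA and 3 (9.38%) in mock cells. At rtv, which organizes chitin, CP190 was at 16.4-fold and the second CLAMP antibody in mock cells at 15.1-fold. The first CLAMP antibody had no peak at rtv. Su(Hw) was at 14.9-fold at the chitinase gene Cht7, and CP190 at 13.7-fold at Idgf6 and at 12.3-fold at the chitin deacetylase gene Cda5.

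Regulators of cuticle genes, mostly ecdysone-response genes, are long, with a median of 46196 bases. Of 14, CP190 was at 13 (92.9%), Su(Hw) at 8 (57.1%), Mod(mdg4) at 5 (35.7%), the first CLAMP antibody at 14 (100%) and the second at 1 after Clamp dsRNA and 13 in mock cells. Of the 4588 protein-coding genes between the shortest and the longest of them in length, 78.4% had CP190, 24.6% Su(Hw), 12.5% Mod(mdg4), 41.9% the first CLAMP antibody, and 2.64% the second after dsRNA and 39.6% in mock cells. That range is not a match of length, and the part of length in these counts was not tested. CP190 was at 18.4-fold at Eip75B and 17.7-fold at Eip74EF, and the second CLAMP antibody in mock cells at 20.9-fold at br. Over tai, a gene of 83434 bases, the largest peak of that antibody was 2.34-fold after Clamp dsRNA and 17.5-fold in mock cells. Whether these peaks lie at the same place in the gene was not examined.

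A pair of families of similar gene length served for comparison, with medians of 1444 bases for the receptor genes and 1315 for the ribosomal protein genes. Of 119 odorant and gustatory receptor genes, CP190 was at 17 (14.3%), Su(Hw) at 9 (7.56%), Mod(mdg4) at 6 (5.04%) and the first CLAMP antibody at 1 (0.840%). Of 92 cytoplasmic ribosomal protein genes, CP190 was at 88 (95.7%), Su(Hw) at 1, Mod(mdg4) at 0 and the first CLAMP antibody at 26 (28.3%). The Cpr shares of CP190 and CLAMP, 21.4% and 1.43%, lay near those of the receptor genes and far from those of the ribosomal protein genes.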

How the data were processed

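Peaks were the authors' deposited lists, 1 per antibody and treatment and pooled over libraries. The submitters' processing notes name the build dm6 and the tools MACS2 2.1.0.20150731, Bowtie2 2.2.9, Picard, SAMtools 1.2 and cutadapt 1.8.1. Their settings and the peak threshold were not given in the sources used here. Among the deposited columns, those used are the fold enrichment (a ratio) at the summit, the −log10 q-value, the score, which is 10 times the −log10 q rounded down, and the summit offset. The best-ranked peaks were taken by q-value, and the share of a list below a peak by fold enrichment. The 6 arms were used, and genes came from a RefSeq table of the same assembly without strand, exons or sequence, so no sequence, motif or strand result is given.

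Cpr genes, nearest summits, clusters and edges were computed with Python 3.11.15, pandas 2.3.3 and numpy 2.4.6. Overlap needed 1 base. The calls of bound genes and the nearest distances were tested on simulated data, and the cluster and edge counts were not. The members and gene lists were chosen with earlier results of these data known. No test was run: counts are set beside all protein-coding genes. Genes were named by rule: for each list the 5 Cpr genes with the largest folds, Cpr genes in 3 or more lists, cluster ends, genes nearest to edge peaks, and the 4 largest of each other list; members just outside the window and others were added after their values were seen. Alternatives changed the window, the peaks kept, the comparison genes and the edge zone.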

Additional observations from a re-analysis of the deposited data

How the results depend on the processing

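Of the alternative values, 51 stayed close to the reported ones and 34 moved. Counts were judged by their ratio to the reported count, and shares of all protein-coding genes by a narrow interval around the reported share. All alternatives of those shares moved, and they describe other sets of genes, so the tally does not measure the Cpr counts alone. With a window of 1000 bases, Cpr genes with a peak numbered 24 for CP190, 14 for Su(Hw), 14 for Mod(mdg4) and 2 for either CLAMP antibody in mock cells; of all protein-coding genes 63.3%, 13.3% and 7.45% then had CP190, Su(Hw) and Mod(mdg4), and 22.6% and 21.1% the first and the second CLAMP antibody. Counting only summits within 500 bases of an end gave 8 for CP190 (11.4%), 4 for Su(Hw) (5.71%) and 4 for Mod(mdg4) (5.71%). Summits deeper inside genes and peaks that only overlap a gene then drop out. Of all protein-coding genes 51.4%, 4.88% and 3.27% had these proteins under that rule, in the same order. The 1000 best-ranked peaks of each list left 4 for Su(Hw) (5.71%), 8 for Mod(mdg4) (11.4%) and 6 for CP190 (8.57%). Of all protein-coding genes 4.36%, 4.96% and 9.52% then had these proteins, in the same order. The gap for CP190 is thus small among the strongest peaks. Either mock CLAMP list then had 0, against 6.08% of all protein-coding genes for the first antibody and 6.75% for the second. The better-ranked 50% left 0 for either mock CLAMP list, against 12.7% of all protein-coding genes for the first antibody and 11.2% for the second. The first CLAMP antibody also had 0 within 200 bases and 0 by overlap alone, while the second in mock cells kept 1 under both. Of all protein-coding genes 18.2% and 17.8% had the first antibody under these rules, and 17.9% and 17.7% the second.

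Among protein-coding genes no longer than the longest Cpr gene, 6.78% had Su(Hw), 3.95% Mod(mdg4), 57.8% CP190, 16.2% the first CLAMP antibody, and 0.733% the second after dsRNA and 15.4% in mock cells. Among those no longer than the median Cpr gene the shares were 3.68%, 2.59%, 33.2%, 3.56%, 0.356% and 4.27% in the same order. Counted as peaks and not as cluster ends, the edge zones to 5 kb held 12 for CP190, 6 for Su(Hw) and 4 for Mod(mdg4). The first CLAMP antibody had 4 there, and the second 0 after dsRNA and 3 in mock cells. Edge peaks within 2 kb numbered 4 for CP190, 2 for Su(Hw), 2 for Mod(mdg4) and 1 for either mock CLAMP list. Within 10 kb they numbered 16, 7 and 5 in the same order, 5 and 4 for the mock CLAMP lists, and 1 for the dsRNA list. Shares of all gene ends were not taken at 2 kb or 10 kb. The loss after dsRNA has no value on the better-ranked 50%, which held no mock peak at a Cpr gene.

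No paired analysis was possible because each list pools its libraries, and for the same reason no replicate was left out. Depth is unknown, so a missing peak is not absence of the protein, and the part of read number in the shorter dsRNA list was not tested.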
